A study of Mus musculus with 71 samples.

Results

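Time-restricted and unrestricted feeding were compared directly in trained mice on an obesogenic diet, 12 h after object recognition memory (ORM) training. The comparison took in all 12 mice that the labels give as HFS TRF or HFS ad lib at ORM+12 h, 6 of each, out of 71 mice in the series. Male wild-type C57BL/6J mice had received a high fat and high sugar diet (HFS) since weaning age, in both groups. HFS ad lib mice always had food, whereas HFS TRF mice spent the last weeks with food only around the dark phase. Both groups explored identical objects during the light phase and were killed 12 h later, at zt15 (15 h after lights on). Untrained HFS TRF mice (5) and HFS ad lib mice (6) left in the home cage (HC) and killed at zt15 were the matching feeding comparison. No cage was given by the labels, and mice were housed by 6, so that cage and feeding schedule cannot be told apart and the p-values measure only the spread between these mice.

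The measured RNA was hippocampal mRNA pulled down with an antibody against phosphorylated ribosomal protein S6 (pS6-TRAP). Phosphorylation of S6 follows activity and growth signals in a cell, so ribosomes carrying it hold mRNA that active cells translate. Food taken at set hours is known to act on clocks in many tissues, and ORM consolidates over the hours after training, and the comparison asks whether translated mRNA differs between feeding schedules in that period. In bulk tissue, fewer cells of a type and less RNA per cell cannot be told apart.

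Very few genes passed the test between the feeding schedules at this time. Of 30141 genes with at least 10 counts in total, 2 passed the quasi-likelihood test of edgeR at an adjusted p under 0.05, which is 0.00664% of the genes tested. Both were lower in HFS TRF mice, both were processed pseudogenes, and no gene was called higher. An unadjusted p under 0.05 was found for 3704 genes (12.3%), of which 1775 were higher (5.89%) and 1929 were lower (6.4%) in HFS TRF mice. The Wald test of DESeq2 called 8 genes, 1 higher and 7 lower. Besides both pseudogenes, the lower ones included Lcn2 and the immunoglobulin genes Ighg2c and Iglc1. Lcn2 and Iglc1 had no count in HFS TRF mice, and Ighg2c was high in 1 HFS ad lib mouse. With the 12 mice fitted alone no gene was called by edgeR, while 2449 genes had an unadjusted p under 0.05. In counts simulated for this comparison over 30141 genes, the same fit found 85 of 100 genes changed by a log2 fold change of 1. It found 57 of 100 changed by 0.5, with 11 false calls, so that differences of 0.5 or less could often go undetected. The simulated rates were not split by level, so they need not hold for genes with few counts. In the 12 mice themselves the first principal component held 47.9% of the variance. With variation shared between genes to that extent, the simulated rates need not hold either.

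Levels are given as counts scaled to library size (CPM) normalized with the TMM method, within 1 gene across mice, and differences as log2 fold changes of HFS TRF minus HFS ad lib with their standard error (SE). Total counts were 44964018 to 57452006 per HFS ad lib mouse and 47472589 to 56723234 per HFS TRF mouse. The dissected tissue carried hippocampal markers in every mouse, with a summed level of 5 CA1 markers of 520 to 639 CPM in HFS ad lib and 534 to 721 CPM in HFS TRF mice, and of 6 dentate gyrus markers of 404 to 530 and 418 to 546 CPM. Genes listed as markers of neighbouring tissue were also detected, thalamic ones at a sum of 88 CPM or more and striatal ones at 119 CPM or more in every mouse. Most of the striatal sum was Ppp1r1b, with means of 255 CPM in HFS ad lib and 164 CPM in HFS TRF mice. The sum therefore does not by itself show striatal tissue in each mouse.

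The 2 called genes are copies of glycolytic enzyme mRNAs. Gm10327 (ENSMUSG00000071343) lies at chr10:33684493-33685494 on the minus strand of GRCm39 and resembles Gapdh, the glyceraldehyde-3-phosphate dehydrogenase gene, at 987 of 999 aligned bases (98.8%). Gm11814 (ENSMUSG00000084215) lies at chr4:10438815-10439743 on the minus strand and resembles Ldha, which encodes the A subunit of lactate dehydrogenase, at 887 of 929 aligned bases (95.5%). A stretch of 120 bases of each is shown with the coding sequence of its parent, to show at which bases a read can tell them apart. It was chosen as the stretch of that length, within a coding exon of the parent, with the most differing bases. Capitals mark the bases at which copy and parent differ, 4 in the first pair and 9 in the second.
Gm10327, chr10:33685345-33685464, minus strand: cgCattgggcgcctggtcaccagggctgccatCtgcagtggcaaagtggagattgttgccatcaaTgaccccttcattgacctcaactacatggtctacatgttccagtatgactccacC
Gapdh, chr6:125140273-125140392, minus strand: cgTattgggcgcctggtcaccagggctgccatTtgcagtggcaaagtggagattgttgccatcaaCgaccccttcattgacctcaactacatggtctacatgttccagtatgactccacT
Gm11814, chr4:10439211-10439330, minus strand: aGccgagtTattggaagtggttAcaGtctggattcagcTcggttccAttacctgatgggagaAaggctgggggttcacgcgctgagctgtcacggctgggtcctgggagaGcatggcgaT
Ldha, chr7:46500356-46500475, plus strand: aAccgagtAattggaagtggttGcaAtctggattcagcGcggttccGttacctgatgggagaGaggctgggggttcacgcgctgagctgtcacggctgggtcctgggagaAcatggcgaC

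Reads of 50 bases were counted only where they mapped uniquely. Of the 953 windows of 50 bases in Gm10327, 417 (43.8%) were identical to a stretch of a Gapdh transcript, against 53 of 880 (6.02%) in Gm11814 and Ldha. With 140 other genes similar to Gm10327 and 16 similar to Gm11814, the counts of these pseudogenes are uncertain. Whether reads of the parents were placed in them was not tested. The windows stand for single reads, although the reads were paired.

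Gm10327 ranged from 1.71 to 2.72 CPM (median 2.35) in HFS ad lib mice and from 0.998 to 1.58 CPM (median 1.31) in HFS TRF mice. The groups did not overlap, and the counts behind these values were 98 to 150 and 47 to 82 per mouse. The log2 fold change was -0.77 ± 0.12 (SE), with an adjusted p of 0.000711 from edgeR. In untrained mice its log2 fold change was -0.07 (unadjusted p = 0.574), with 2.09 to 2.33 CPM in HFS TRF and 1.91 to 2.71 CPM in HFS ad lib mice. The interaction of feeding and training did not pass the adjustment (adjusted p = 0.141, the smallest reached by any gene).

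Gm11814 ranged from 0.453 to 1.41 CPM (median 0.925) in HFS ad lib and from 0.224 to 0.637 CPM (median 0.418) in HFS TRF mice. It was named because it was called, although its mean was under the 1 CPM asked of the other genes named by rank. The groups overlapped, and only 12 to 30 counts per mouse lay behind the HFS TRF values. The log2 fold change was -1.07 ± 0.20 (SE), with an adjusted p of 0.0204 from edgeR. In untrained mice it was 0.28 (unadjusted p = 0.169).

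Neither parent was called. Gapdh was at 199 to 249 CPM (median 219) in HFS ad lib mice and 181 to 241 CPM (median 209) in HFS TRF mice, with a log2 fold change of -0.06 ± 0.07 (SE, adjusted p = 0.771). Ldha was at 385 to 516 CPM (median 412) and 354 to 450 CPM (median 398), with -0.12 ± 0.07 (SE, adjusted p = 0.486). Of the 127 similar genes of Gm10327 that could be tested, none was called, 63 were higher and 62 lower in HFS TRF mice, and their median log2 fold change was 0. Of the 12 tested for Gm11814, none was called, 2 were higher and 8 lower.

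Both pseudogenes also differed between the experiments of the series. Gm10327 was at 9.17 to 15.2 CPM in the 36 mice of the first experiment (HC zt3 and ORM+1 h) and at 0.998 to 3.05 CPM in the 35 mice of the second, and Gm11814 at 1.85 to 3.55 and 0.224 to 1.41 CPM. The model took its estimate of the spread from all 71 mice. Fitted on the 12 mice alone, Gm10327 had a log2 fold change of -0.79 and Gm11814 of -1.08, and the adjusted p was 0.584 for each. With limma's voom and quality weights the adjusted p was 0.269 for Gm10327 and 0.399 for Gm11814. Gm10327 kept its call whichever single mouse was left out (adjusted p = 0.000119 to 0.0113), while Gm11814 lost it without HFS ad lib mouse 1, 4 or 5 or HFS TRF mouse 2, 4 or 5 (adjusted p = 0.0907 to 0.213). Fits that left out a mouse reused the trend of spread with level from all 71 mice, so they were not independent of it. The part that read placement plays in the 2 calls was not tested.

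**Figure D1:**
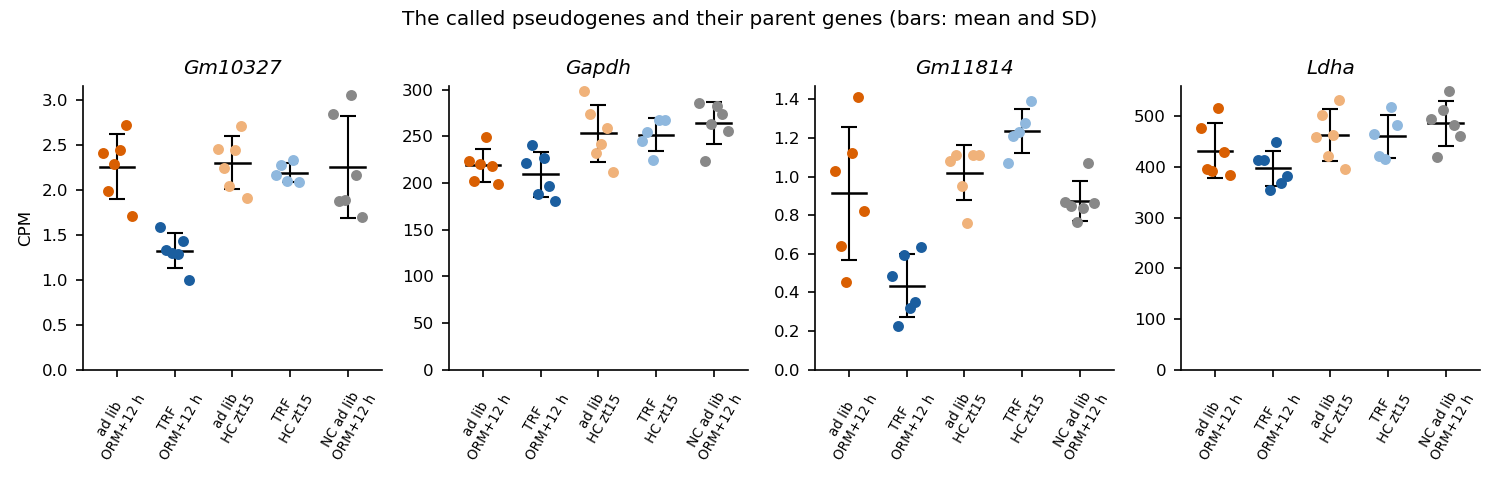
TMM-normalized CPM of the 2 called pseudogenes and of the genes they copy. Shown are HFS ad lib and HFS TRF mice, trained (ORM+12 h) or not (HC zt15), and trained NC (normal chow) ad lib mice. Points are mice and black lines mean and SD. Gm10327 lies between 0.998 and 1.58 CPM in the 6 trained HFS TRF mice, below every other mouse shown, while Gapdh and Ldha overlap between the groups.

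The choroid plexus, the tissue that secretes cerebrospinal fluid and borders the hippocampus, was present in very different amounts in these mice. Ttr encodes transthyretin, the thyroid hormone carrier that choroid plexus makes in bulk. In HFS ad lib mice 1 to 6 it was at 8900, 1190, 8600, 116, 15300 and 518 CPM. In HFS TRF mice 1 to 6 it was at 323, 257, 129, 164, 557 and 9760 CPM. Thus 3 HFS ad lib mice and 1 HFS TRF mouse exceeded 2000 CPM, and within each group the levels spanned the low and the high range. The log2 fold change was -1.63 ± 1.2 (SE), adjusted p = 0.603. It was -4.33 (unadjusted p = 0.00248, adjusted p = 0.249) without HFS TRF mouse 6, so that this mouse decided the size of the difference.

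All 18 choroid plexus markers shared the direction of Ttr, with a median log2 fold change of -1.55 (range -2.13 to -1.08). None was called, and 1 had an unadjusted p under 0.05, where 6.4% of all genes had one in that direction. It was the BMP antagonist Sostdc1, at 4.93 to 97.6 CPM (median 28.5) in HFS ad lib and 4.03 to 43.1 CPM (median 5.25) in HFS TRF mice. Enpp2, which makes lysophosphatidic acid, spanned 68.1 to 5120 CPM (median 1690) and 67.8 to 2560 CPM (median 153). Clic6, an intracellular chloride channel protein, spanned 26.1 to 518 and 26.6 to 266 CPM, and Kcne2, a potassium channel subunit, 1.56 to 109 and 1.2 to 44.9 CPM. No choroid plexus marker was at 0 in any mouse. Without the choroid-rich mice, those above 2000 CPM of Ttr, 12 genes were called over all genes, 3 higher and 9 lower, among them Gm11814 (adjusted p = 0.0448) but not Gm10327 (log2 fold change -0.55, adjusted p = 0.202). The 12 also held the immunoglobulin genes Ighg2c and Iglc1, both high in HFS ad lib mouse 2 (adjusted p = 0.0297 and 0.0448 from edgeR).

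The same markers lay the other way in untrained mice. Their median log2 fold change at HC zt15 was 1.85 with 18 of 18 higher in HFS TRF, and none was called there either. Choroid-rich mice were 4 of the 12 trained and 4 of the 11 untrained ones. The part of dissection in these levels was not tested. Among the 12 trained mice the first principal component of 14801 genes held 47.9% of the variance, and 11 of the 20 genes with the largest weight on it were choroid plexus markers. Of 6 ependymal markers 4 were lower and 2, Ccdc153 and Tmem212, were higher in HFS TRF (log2 fold changes of 0.59 and 0.52), and none was called. Foxj1, the master factor of motile cilia, was at 5.87 to 55.6 CPM in HFS ad lib and 6.97 to 27.8 CPM in HFS TRF mice.

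**Figure D2:**
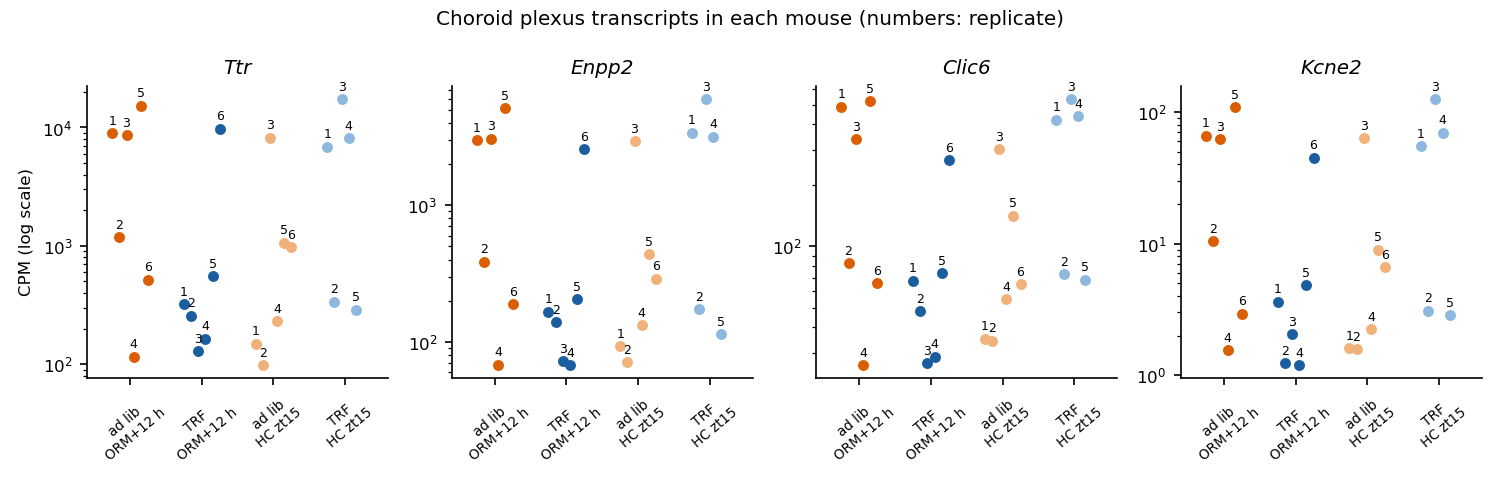
TMM-normalized CPM, on a log axis, of 4 choroid plexus genes in each mouse of the HFS groups, with replicate numbers at the points. Mice 1, 3 and 5 of the trained HFS ad lib group and mouse 6 of the trained HFS TRF group lie far above the others for Ttr, Enpp2 and Kcne2, and the untrained groups show the same split with more such mice in HFS TRF.

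Thyroid hormone genes were not called, and 1 transporter gene went with the choroid plexus markers. Slco1c1, a thyroxine transporter that choroid plexus also makes, was at 3.72 to 87.2 CPM (median 28.6) in HFS ad lib and 5.9 to 52.1 CPM (median 8.63) in HFS TRF mice. Its log2 fold change of -1.17 ± 0.61 (SE, adjusted p = 0.427) became 0.01 without the choroid-rich mice. Dio2, the deiodinase that makes T3 in astrocytes, was at 18.7 to 37.6 CPM (median 27.6) and 29.6 to 44.5 CPM (median 34.1), a log2 fold change of 0.43 ± 0.24 (SE, adjusted p = 0.468). The T3 receptor genes Thra and Thrb differed by 0.11 and -0.06, and the target genes Klf9 and Hr by -0.07 and -0.01. Mapk3, a kinase gene of the list, had 0.16 (adjusted p = 0.370), the single unadjusted p under 0.05 in it, where 5.89% of all genes had one in that direction. Of the 17 thyroid hormone genes none was called, 7 were higher and 10 lower, with a median of -0.01, or 0.05 without the choroid-rich mice, against a median of 0 over all genes tested.

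Transcripts of myelinating oligodendrocytes, the cells that wrap axons, lay higher in HFS TRF mice as a list, without a call for any gene. All 10 markers had higher means in HFS TRF mice, with a median log2 fold change of 0.48 (range 0.32 to 0.61), while 47% of all genes tested were higher. Each of the 10 had an unadjusted p under 0.05, where 5.89% of all genes had one in that direction, but none was called after adjustment (smallest adjusted p = 0.289). Their summed level was 712 to 1164 CPM (median 991) in HFS ad lib and 1229 to 1439 CPM (median 1281) in HFS TRF mice, without overlap.

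Among the structural proteins of compact myelin, Mbp, encoding myelin basic protein, was at 301 to 520 CPM (median 437) in HFS ad lib and 513 to 619 CPM (median 559) in HFS TRF mice. The groups met only at HFS ad lib mouse 6, with 520 CPM, and HFS TRF mouse 5, with 513 CPM. The log2 fold change was 0.43 ± 0.11 (SE), unadjusted p = 0.000114 and adjusted p = 0.289 in edgeR. Mobp, a basic protein of the same layers, ranged from 46 to 75.8 CPM (median 65.7) and from 82.3 to 103 CPM (median 95.3), without overlap, with 0.54 ± 0.14 (SE, adjusted p = 0.333).

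The tight junction gene Cldn11 was at 25.7 to 41.9 CPM (median 37.9) in HFS ad lib and 42.5 to 56.3 CPM (median 52.1) in HFS TRF mice. Mog, whose product lies on the outer face of myelin, was at 5.2 to 8.66 CPM (median 6.32) and 8.7 to 11.1 CPM (median 8.99). Neither gene overlapped between the groups, and in all 4 of the 10 markers did not, against 0.113% of all genes that were higher without overlap in HFS TRF. Cnp, which encodes a phosphodiesterase of uncompacted myelin, was at 143 to 231 CPM (median 188) and 220 to 311 CPM (median 233). Mag (periaxonal adhesion), Mal (membrane raft protein), Opalin and Ugt8a (galactolipid synthesis) had log2 fold changes of 0.39, 0.47, 0.61 and 0.32, with ranges that overlapped between the groups.

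**Figure D3:**
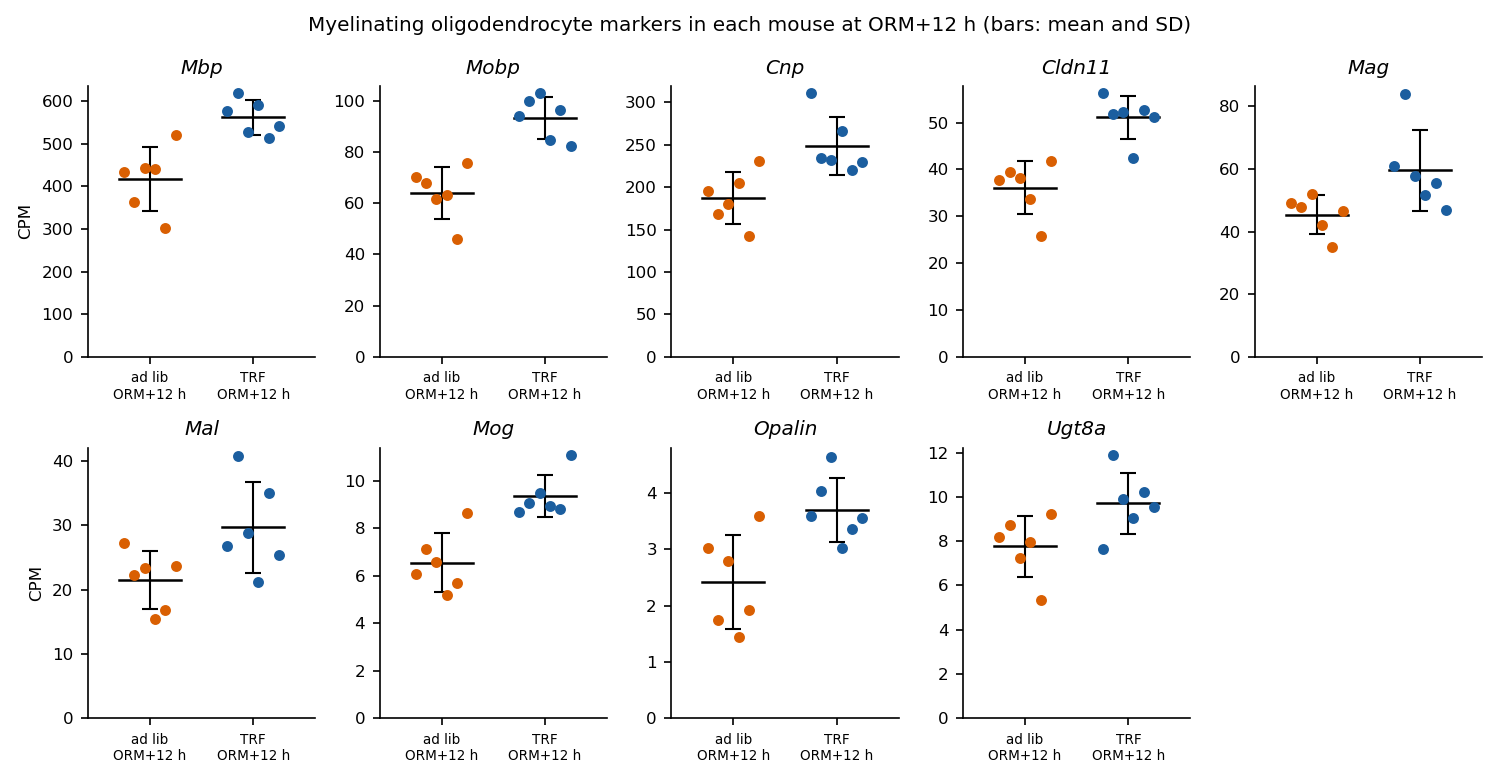
TMM-normalized CPM of 9 of the 10 myelinating oligodendrocyte markers in the 12 trained mice. Points are mice and black lines mean and SD. The mean is higher in HFS TRF for each gene, and the 2 groups do not overlap for Mobp, Cldn11 and Mog, yet no gene passed the adjustment over all genes.

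In untrained mice the values lay the other way. At HC zt15 the markers had a median log2 fold change of -0.21, 1 was higher and 9 were lower in HFS TRF, and 1 of them (Ugt8a) had an unadjusted p under 0.05, where 7.32% of all genes had one in that direction. Mbp, for example, was at 370 to 472 CPM in untrained HFS TRF and 435 to 534 CPM in untrained HFS ad lib mice. For 9 of the 10 genes the interaction of feeding and training reached an unadjusted p under 0.05, against 14.1% of all genes tested, and passed the adjustment for none (smallest adjusted p = 0.141). No interaction was called by edgeR over all genes (0%, with 4247 at an unadjusted p under 0.05), and 17 were called by DESeq2.

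In trained mice the myelin median of 0.48 changed little in the fits that dealt with choroid plexus content. With the choroid plexus marker score in the model the median was 0.46 and 9 of the 10 genes kept an unadjusted p under 0.05. Without the 4 choroid-rich trained mice it was 0.43 with 8 of 10. The choroid plexus markers still had a median of -0.75 there, so that their content was not made equal. HFS ad lib mouse 5, the mouse with the most Ttr, also had the lowest level of Mbp, Mobp, Cnp, Cldn11, Mag and Ugt8a in its group, and without it 8 of the 10 genes had an unadjusted p under 0.05 and the median was 0.41. How much white matter was dissected with each hippocampus was not measured, and its part was not tested.

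Precursor markers of the oligodendrocyte lineage lay in both directions, 5 higher and 1 lower. Gpr17, a receptor of newly forming oligodendrocytes, was at 52.2 to 70.9 CPM (median 55.8) in HFS ad lib and 70.4 to 83.2 CPM (median 76.5) in HFS TRF mice, a log2 fold change of 0.40 ± 0.13 (SE, adjusted p = 0.358). Pdgfra, the growth factor receptor of precursors, lay the other way, at 8.14 to 16.3 CPM (median 12.1) and 6.8 to 12.4 CPM (median 10.1), with -0.35 ± 0.17 (SE, adjusted p = 0.398). The 6 precursor markers had a median of 0.20, and of 0.10 without the choroid-rich mice. Further genes were looked up after their values were seen, so that they add no support. Sox10, the transcription factor of the lineage, had 0.38 (unadjusted p = 0.000715), and Enpp6, a marker of newly formed oligodendrocytes, 0.61 (unadjusted p = 0.00191). Pllp, encoding the myelin protein plasmolipin, had 0.54 and Gltp, a glycolipid transfer protein, 0.39, both without overlap between the groups.

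Genes ranked by p within this comparison mixed these themes. Besides Gm10327, the gene of smallest p at a mean of at least 1 CPM was Slc44a1, a choline transporter also made by oligodendrocytes. It was at 33.1 to 50.6 CPM (median 39.7) in HFS ad lib and 41.2 to 61.2 CPM (median 58.5) in HFS TRF mice. HFS TRF mouse 4, with 41.2 CPM, lay apart from the other 5, at 57.7 CPM or more, and the log2 fold change was 0.47 ± 0.11 (SE), with an adjusted p of 0.289, or 0.0407 without that mouse. Wdfy1, an endosomal adaptor, had 0.63 (unadjusted p = 0.000142), which rested on HFS TRF mouse 1, at 20.2 CPM against 5.53 to 7.61 CPM in the other 5, and was 0.21 (unadjusted p = 0.061) without it. Ier3ip1, which acts in transport between endoplasmic reticulum and Golgi, had 0.28, Prune2 0.27, Ly6g6e 0.99, the proline synthesis enzyme Pycr1 0.68 and the ribosomal protein gene Rpl23a 0.32. The processed pseudogenes Gm9493 and Gm5802 had 0.66 and 0.26, and their counts carry the same doubt as other copies. Adjusted p-values of these higher genes were 0.289 or 0.333.

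The lower genes of highest rank included 2 immunoglobulin constant regions. Ighg2c, a heavy chain, was at 20.2 CPM in HFS ad lib mouse 2 and at 0.28 to 0.809 CPM in the other 5, against 0.359 to 0.89 CPM in HFS TRF mice. Its log2 fold change of -2.69 (adjusted p = 0.289) was 0.19 (unadjusted p = 0.688) without that mouse. Iglc1, a light chain, was at 7.17 CPM in the same mouse, 0.21 CPM in HFS ad lib mouse 6 and 0 in the other 10 mice. Against a floor of 3 counts in the shallowest HFS TRF library (0.0637 CPM) the HFS TRF level was at least 19.3-fold lower than the HFS ad lib mean of 1.23 CPM, and that mean was 0.042 CPM without mouse 2, under the floor. Both genes thus described 1 mouse.

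The other lower genes overlapped between the groups, except Syne2, whose groups met at 14.3 CPM. Syne2, which links the nucleus to the cytoskeleton, was at 14.3 to 19.3 CPM (median 16.6) in HFS ad lib and 11 to 14.3 CPM (median 12.9) in HFS TRF mice, with -0.40 ± 0.11 (SE, adjusted p = 0.333). Iqgap1, a cytoskeletal scaffold, was at 7.12 to 20.6 CPM (median 11.1) and 4.45 to 10.9 CPM (median 5.61), with -0.88 ± 0.25 (SE, adjusted p = 0.333), and -0.72 without the choroid-rich mice. Rbbp8, a DNA repair factor, had -0.82, and -0.33 (unadjusted p = 0.151) without those mice. Tmem232 had -1.03 and then -0.26 (unadjusted p = 0.437). The kinase gene Map3k1 had -0.75, the phosphatase gene Ptpn13 -0.71, the zinc finger gene Zkscan7 -0.92, the ciliary gene Nphp4 -0.31 and Aff2, encoding a transcription elongation factor, -0.52, each with an adjusted p of 0.333 and with -0.83 to -0.28 without the choroid-rich mice.

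Over all genes tested, 34 were higher in every HFS TRF mouse than in every HFS ad lib mouse (0.113%) and 19 were lower (0.063%). Of the 14801 genes with a mean of at least 1 CPM in a group these were 23 and 13. Besides the genes above, and chosen after their values were seen, the higher ones held Tmem125 and Nkx2-2, the latter a transcription factor of oligodendrocyte precursors, at 6.19 to 7.39 CPM against 4.65 to 6.16 CPM. The lower ones held Agbl4, Arid4b, Nufip2 and Cog2, with log2 fold changes of -0.36, -0.31, -0.31 and -0.39.

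**Figure D4:**
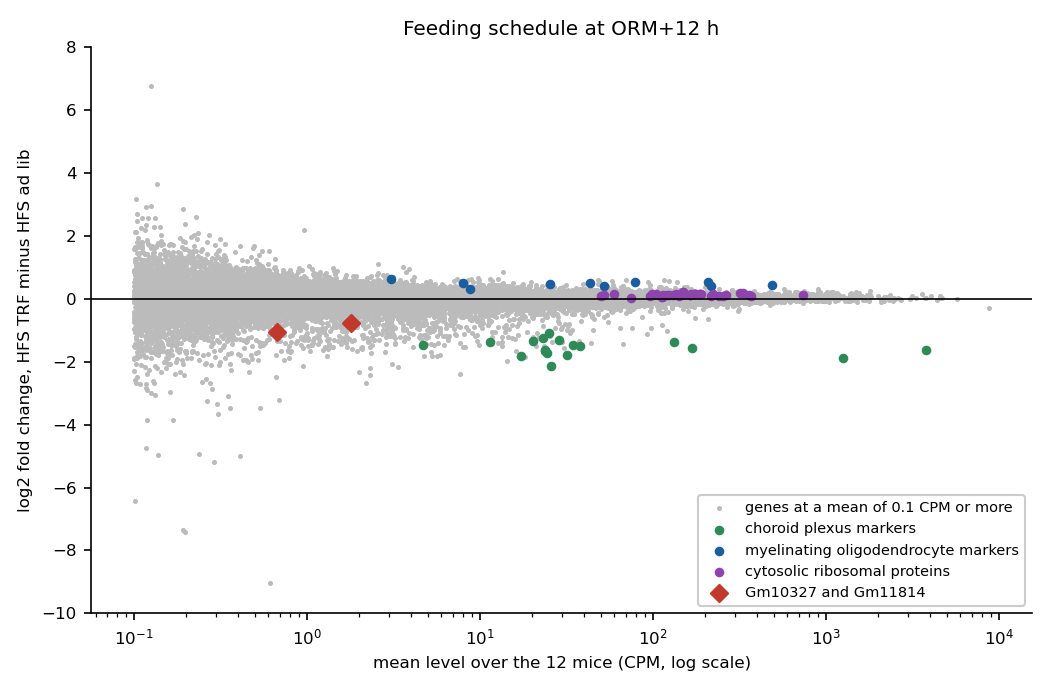
Log2 fold change of HFS TRF minus HFS ad lib at ORM+12 h against the mean CPM of the 12 mice (log axis), for genes with a mean of at least 0.1 CPM. The 18 choroid plexus markers (green) lie between -2.13 and -1.08, the 10 myelin markers (blue) between 0.32 and 0.61, and the 42 ribosomal protein genes (purple) between 0.04 and 0.22. Red diamonds are the 2 called pseudogenes.

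Cytosolic ribosomal protein genes, part of the translation machinery itself, had small positive values. All 42 were higher in HFS TRF mice, 14 with an unadjusted p under 0.05 (5.89% of all genes tested) and none called, and the median log2 fold change was 0.12. Rps24 was at 119 to 164 CPM (median 134) in HFS ad lib and 138 to 175 CPM (median 162) in HFS TRF mice, with 0.21 ± 0.07 (SE, adjusted p = 0.370), and Rps15 had 0.19 ± 0.07 (SE, adjusted p = 0.370). Untrained mice were alike in direction, with 41 of 42 higher, 21 at an unadjusted p under 0.05 (8.25% of all genes) and a median of 0.15. The count of 14 depended on single mice. It was 28 without HFS ad lib mouse 1, 23 without HFS ad lib mouse 6 or HFS TRF mouse 6, 8 without HFS ad lib mouse 3 or 4 or HFS TRF mouse 1, 7 without HFS ad lib mouse 5 and 1 without HFS TRF mouse 4.

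Immediate early genes, which neurons switch on with activity, lay lower without a call. Of 21 genes 19 were lower in HFS TRF mice, with a median log2 fold change of -0.23, and 1 had an unadjusted p under 0.05, where 6.4% of all genes had one in that direction. It was Npas4, a neuronal activity factor, at 5.42 to 20.2 CPM (median 9.68) in HFS ad lib and 2.32 to 14.8 CPM (median 4.96) in HFS TRF mice, with -0.65 ± 0.30 (SE, adjusted p = 0.385). Egr1 was at 164 to 305 CPM (median 204) and 128 to 230 CPM (median 157), with -0.33 ± 0.18 (SE, adjusted p = 0.433), and Fos had -0.47 ± 0.32 (SE, adjusted p = 0.545). The groups overlapped widely for these genes. In untrained mice 10 of the 21 were higher and 11 lower.

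Synaptic gene lists had medians of opposite sign in trained and untrained mice. Of 20 glutamate receptor and postsynaptic genes, 17 were higher in trained HFS TRF mice (median 0.06) and 1 was in untrained ones (median -0.15). Nlgn1, a synaptic adhesion gene, had 0.19 ± 0.08 (SE, adjusted p = 0.375) and Gria4, an AMPA receptor subunit gene, 0.20 ± 0.10 (SE, adjusted p = 0.40). Of 22 voltage-gated channel genes, 18 were higher in trained (median 0.11) and 2 in untrained mice (median -0.14), Kcnd3 having 0.15 (adjusted p = 0.521). The interaction had an unadjusted p under 0.05 for 5 genes of each list, against 14.1% of all genes tested, and for no gene did it pass the adjustment. In trained mice the postsynaptic median moved little with choroid plexus content, being 0.05 without the choroid-rich mice and 0.04 with the marker score in the model. The channel median moved more, being 0.03 and 0.07. Of 14 neuropeptide genes 10 were higher, Pdyn, encoding prodynorphin, with 0.36 ± 0.18 (SE, adjusted p = 0.398) and Cck with 0.22. C1ql2, made by dentate granule cells, was at 65.1 to 98.7 CPM (median 82.7) in HFS ad lib and 97.5 to 122 CPM (median 113) in HFS TRF mice, with 0.43 ± 0.13 (SE, adjusted p = 0.358).

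**Figure D5:**
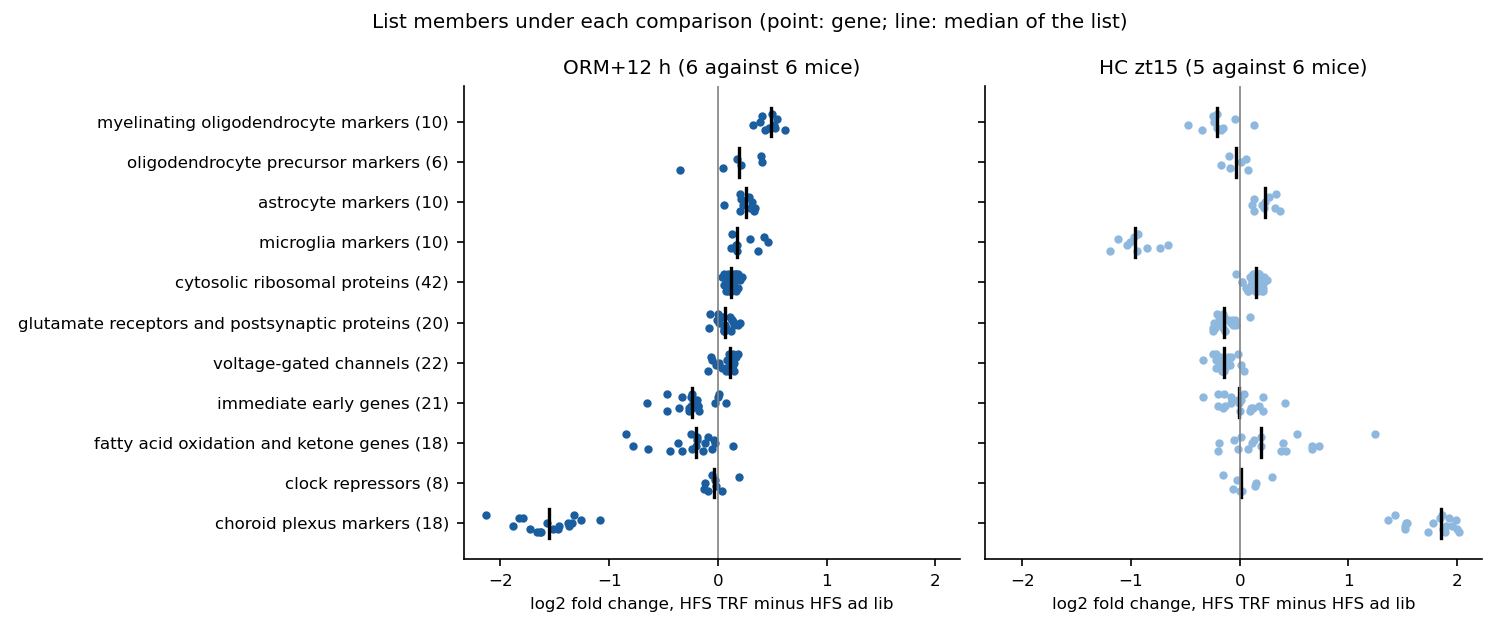
Log2 fold change of HFS TRF minus HFS ad lib for each member of 11 gene lists, in trained mice at ORM+12 h (left) and in untrained mice at HC zt15 (right). Points are genes, black lines list medians, and the number of genes is given after each name. The myelin median is 0.48 on the left and -0.21 on the right, the choroid plexus median -1.55 and 1.85, and the ribosomal protein median 0.12 and 0.15.

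No circadian clock gene was called between the schedules. The activators and loop genes (8) had a median of -0.02, the repressors (8) -0.04 and the output factors (4) 0.12. Bmal1, the core activator, was at 25.1 to 37.7 CPM (median 27.6) in HFS ad lib and 21.3 to 31 CPM (median 26.7) in HFS TRF mice, with -0.17 ± 0.10 (SE, adjusted p = 0.486). Clock had -0.08, Npas2 0.00, Nr1d1 0.05, Nr1d2 -0.05, Rora 0.07 and Rorb 0.24. Among the repressors Per1 had -0.09, Per2 -0.13, Per3 -0.02, Cry1 -0.12, Cry2 -0.03, Ciart 0.19, Bhlhe40 -0.05 and Bhlhe41 0.04. Dbp had 0.19, Tef 0.06 and Nfil3 -0.26. Hlf, an output factor, had 0.24 ± 0.11 (SE, adjusted p = 0.379), at 110 to 147 CPM (median 125) in HFS ad lib and 130 to 164 CPM (median 150) in HFS TRF mice.

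Metabolic and hormonal lists held no called gene. Of 18 fatty acid oxidation and ketone genes 17 were lower (median -0.20), none with an unadjusted p under 0.05, and Acadvl, the very long chain acyl-CoA dehydrogenase, had -0.33 ± 0.17 (SE, adjusted p = 0.426). Choroid plexus markers went with this list, whose median was -0.05 both with the marker score in the model and without the choroid-rich mice, where Acadvl had -0.06. Of 18 glucocorticoid-responsive genes 13 were lower (median -0.09, and -0.01 without the choroid-rich mice). Of these, 3 had an unadjusted p under 0.05, where 6.4% of all genes had one in that direction, and 1 had it without the choroid-rich mice. Sgk1, a kinase gene that glucocorticoids induce, was at 62.7 to 106 CPM (median 85.2) and 58.1 to 72.1 CPM (median 64.1), with -0.38 ± 0.15 (SE, adjusted p = 0.370), and -0.16 (unadjusted p = 0.337) without the choroid-rich mice. Zbtb16 had -0.18.

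Igfbp5, an insulin-like growth factor binding protein, was at 92.6 to 161 CPM (median 133) in HFS ad lib and 124 to 218 CPM (median 168) in HFS TRF mice, with 0.39 ± 0.13 (SE, adjusted p = 0.358). The 18 insulin and FoxO genes it belongs to had a median of -0.03, 8 higher and 10 lower. Among 27 genes of cholesterol and fatty acid synthesis the median was 0.01, Cyp51 having 0.26 and Acaca -0.19. The amino acid stress response (20 genes, Chac1 -0.21 and Atf5 0.17) and the chaperones (19 genes, Dnajb9 0.25 and Dnajb1 -0.14) had medians of 0.05 and -0.05. Without the choroid-rich mice the chaperone median was 0.06 and that of the insulin and FoxO genes 0.01, both of the other sign. The cold-inducible Cirbp and Rbm3 had 0.21 and 0.24.

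Nuclear subunits of oxidative phosphorylation (28 genes) had a median of 0.01, Cox6c having 0.17 and Cox5b 0.12. Mitochondrially encoded subunits varied from mouse to mouse. Of 13 genes 11 were higher (median 0.58), 2 at an unadjusted p under 0.05, where 5.89% of all genes had one in that direction. The first was mt-Co1, at 52.9 to 118 CPM (median 101) in HFS ad lib and 56.9 to 231 CPM (median 124) in HFS TRF mice, with 0.61 ± 0.29 (SE, adjusted p = 0.389). The other, mt-Co3, was under 0.5 CPM in each of the 12 mice.

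Astrocyte and microglia lists were higher without a test passed. All 10 astrocyte markers were higher, with a median of 0.26, S100b having 0.34 and Gfap 0.29, and in untrained mice the median was 0.23 with 10 of 10 higher. The 8 astrocytic glutamate genes were all higher (median 0.15), and Slc1a3, the glutamate transporter GLAST, was at 116 to 284 CPM (median 231) and 206 to 338 CPM (median 268), with 0.31 ± 0.30 (SE, adjusted p = 0.734). Grin2c had 0.36, Slc1a2 0.21, Glul 0.13, Grm3 0.17, Slc7a11 0.13 and Slc25a18 0.07. Neither of these lists held a gene with an unadjusted p under 0.05. Summed astrocyte markers spanned 1592 to 3250 CPM in HFS ad lib and 2312 to 3185 CPM in HFS TRF mice. The 10 microglia markers had a median of 0.18 (0.42 without the choroid-rich mice), with C1qa and C1qc at 0.46 and 0.43, and their summed level was 84.9 to 127.6 CPM and 105.9 to 166.6 CPM. In untrained mice their median was -0.96, where 1 HFS ad lib mouse reached 669 CPM.

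Lists of other cell types held no called gene. Excitatory neuron markers (7, median 0.01) held Slc17a7 at 0.19 and Syt1 at 0.15, and interneuron markers (9, median 0.13) held Pvalb at 0.13 and Slc32a1 at 0.16. CA1, CA3 and dentate gyrus markers had medians of 0.03, 0.00 and 0.08, and thalamic and striatal markers 0.34 and 0.27, none of these lists holding a called gene. Without the choroid-rich mice the thalamic median was -0.03 and the striatal 0.06. Ppp1r1b, a striatal marker, went with the choroid-rich mice, at 110 to 440 CPM and 115 to 279 CPM, with -0.63 (adjusted p = 0.420) and 0.02 without them. Endothelial markers summed to 2.94 to 18.6 CPM and 3.74 to 19.5 CPM, and of the 9 genes 6 were higher and 3 lower (median 0.22). Ly6c1 and Abcb1a had 1.68 and 0.93 from levels of at most 1.72 CPM, whereas Slco1a4 had -1.21, Kdr -0.28 and Cdh5 -0.17. Mural, meningeal and blood markers had medians of -0.25, -0.31 and -0.11. The meningeal median turned with choroid plexus content, being 0.41 with the marker score in the model and 0.03 without the choroid-rich mice, where the mural median was -0.42. In the interferon and inflammation list (15 genes, median 0.15), Ifit3 had 0.61, and Lcn2 had at most 10 counts in any of the 12 mice.

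The lists that the study derived were also looked up. Its module of genes that went with training at 12 h in HFS TRF mice, of which 837 were looked up here, was chosen on the HFS TRF mice compared here and is not independent of them. Of its genes 462 were higher and 375 lower (median 0.05), 87 and 104 of them at an unadjusted p under 0.05 (5.89% and 6.4% of all genes tested), and none was called. Those counts went with choroid plexus content, being 72 and 25 with the marker score in the model. Without the choroid-rich mice they were 21 and 14, where 1147 and 1501 of all 30141 genes had such a p. Of 123 astrocytic genes that the study took from other mice, 97 were higher (median 0.15) and 3 of these had an unadjusted p under 0.05, against 5.89% of all genes tested, and in untrained mice 116 were higher (median 0.22). The 27 thyroid hormone targets among them had medians of 0.21 and 0.20.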

How the data were processed

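Hippocampal pS6-TRAP mRNA of 71 mice was sequenced as 50 base paired reads. According to the submitters' processing notes, reads were trimmed with Trim Galore 0.6.7 and cutadapt 3.4, aligned with HISAT2 2.2.0 and counted per gene with featureCounts (Subread 2.0.3). The deposited values are raw counts, which the authors neither filtered nor normalized, on GRCm39 (mm9 is also named in the notes). Whether strand was used in counting is not given in the sources used here.

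Gene names and positions came from GENCODE vM39, which matched 56310 of 57010 identifiers. Genes with at least 10 counts in total (30141) were tested with edgeR 4.0.16 in R 4.3.3 (TMM scaling, CPM for display, quasi-likelihood test, 12 groups of diet and condition, 71 mice), with Benjamini-Hochberg adjustment over all genes within a comparison. SE is the size of the log2 fold change divided by the square root of F. The study's own tool, DESeq2, was an alternative, as were its size factors in edgeR, filters of at least 1 count (35816 genes) and filterByExpr (21512 genes), a block for the replicate number, only the groups compared, limma with voom and quality weights, a choroid plexus score as a covariate, protein-coding genes (17601), and each mouse left out. The fits without the 8 choroid-rich mice (Ttr above 2000 CPM, 4 trained and 4 untrained) and with the score in the compared groups alone were chosen after seeing the data. Fits that left out a mouse kept the trend of spread with level estimated from all 71 mice. The main fit was tested on simulated counts.

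The genes named were the 12 higher and 12 lower with the smallest p at a mean of at least 1 CPM in a group, per list the called genes (at most 4) or else the 1 or 2 of smallest p, choroid plexus markers, core clock genes, and the thyroid and astrocytic glutamate genes that the study names. Members and lists were chosen with earlier results of these data known, and lists were not tested. Pseudogenes similar to Gm10327 share 90% identity over 90% of its length, and to Gm11814 85% over 60%. Replicate pairs differed by at least 16.2 times the variance of counting noise, so all were kept as separate samples. Counting intervals are not given, since the spread between mice was larger. Results on some genes are not reported here, although these genes stay in the counts and medians of their lists. All per-sample columns of the table were used.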

Additional observations from a re-analysis of the deposited data

Results flagged for a closer look

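In 33 of 300 groups of 6 mice (150 genes in each feeding group), 1 mouse lay apart from the other 5 by Dixon's test at the 95% level, where chance gives about 1 in 20. All values here are TMM-normalized CPM.

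HFS TRF mouse 6 was the high mouse for 14 genes. For choroid plexus markers it held 9760 CPM of Ttr (129 to 557 in the others), 43.1 of Sostdc1, 279 of Kl, 40.1 of Aqp1, 57.3 of Slc4a5, 2560 of Enpp2, 29.8 of Prlr, 71.3 of F5, 58.9 of Tmem72, 98.1 of Ecrg4 and 11.9 of Steap1. It was also high for Slco1c1 (52.1), Ppp1r1b (279) and Mog (11.1, against 8.7 to 9.5).

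HFS TRF mouse 4 was low for Slc44a1 (41.2, against 57.7 to 61.2), Cldn11 (42.5), Gria4 (24) and Nectin3 (16.6), and high for Cox5b (410). HFS TRF mouse 1 was high for Wdfy1 (20.2) and S100b (190), and low for Nphp4 (15.8), Cck (314) and Tef (364).

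HFS ad lib mouse 2 was high for Ighg2c (20.2), Iglc1 (7.17) and Med12 (16.6, against 9.29 to 10.8). HFS ad lib mouse 1 was low for Gria4 (24.9) and Syt1 (1130). HFS ad lib mouse 4 was low for Pdyn (7.58) and Abcb1a (0.149) and high for Bhlhe40 (183), and HFS ad lib mouse 5 was low for Mapk3 (158).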

How the results depend on the processing

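Against 2 genes called at ORM+12 h (0 higher, 2 lower), DESeq2 called 8 (1 higher, 7 lower), limma voom 1 (lower), the fit of only the groups compared 0 (0 lower) and protein-coding genes alone 0 (0 lower), since both called genes are pseudogenes. Without the choroid-rich mice 12 were called (3 higher, 9 lower), and with the choroid plexus score in only the groups compared 1 (lower). At HC zt15, against 0, DESeq2 called 56 genes, voom 5 and the last-named fit 8. For the interaction, against 0, DESeq2 called 17, and the score as a covariate and the fit without choroid-rich mice 1 each. Of 42 ribosomal protein genes, 14 had an unadjusted p under 0.05, which became 4 in only the groups compared, 7 with voom and 0 with the score there. The causes were not tested. Leaving out 1 mouse at a time gave 1 to 2 called genes (0 to 1 higher, 1 to 2 lower), 0 to 5 interactions (2 without HFS ad lib mouse 3, 5 without HFS TRF mouse 6), 8 to 10 myelin genes, 1 to 28 ribosomal protein genes and a log2 fold change of Ttr from -4.33 to -1.05.

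Replicate numbers gave no sign of pairing the trained mice. Same-numbered mice correlated from -0.41 to 0.39 and over 0.1 in 1 of 6 pairs, and 1 of 6 mice correlated best with its own number. These correlations cannot decide whether the numbers pair mice, since a component led by choroid plexus markers held 47.9% of the variance. The replicate block left 2 called genes and 14 ribosomal protein genes over 71 mice. In only the groups compared it gave 17 (14 higher), 294 at HC zt15, 1 interaction and 7 ribosomal protein genes, and 5 myelin genes were then called.

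No called value changed sign. Size factors of DESeq2 and the other filters on low counts changed no call of the 241 values of single genes, and no setting moved the median of all genes by more than 0.0208. Values of a few counts, as of Gm11814, Iglc1 and Lcn2, are limited by depth.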

Other observations

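Feeding comparisons at the other times of the series gave few calls as well. At HC zt3, edgeR called 0 genes, with 1774 at an unadjusted p under 0.05, and DESeq2 called 1. At ORM+1 h, edgeR called 0, with 1971 at an unadjusted p under 0.05, and DESeq2 called 0. The ribosomal protein genes had median log2 fold changes of 0.13 at HC zt3 and -0.03 at ORM+1 h.

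Iglc1 also varied in NC ad lib mice at ORM+12 h, from 0 to 1.24 CPM, and Lcn2 reached 17.5 CPM in HFS ad lib mouse 2 at HC zt15.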
